A study of Mus musculus with 21 samples.

Results

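Eosinophils, basophils and mast cells are granulocytes of allergy and of defence against parasites, and this account describes 9 genes of these lineages in mouse blood progenitors that had kept or lost Dot1l. The genes are Prg2, Prg3, Epx, Il5ra, Cpa3, Mcpt8, Ms4a2, Fcer1a and Hdc, which are 9 of the 18194 genes measured. Together they had 11 probe sets annotated to 1 of them alone, where a probe set is a group of short array probes for a transcript. Of several probe sets of a gene, the one with the highest mean log2 level over all arrays represents it, and the second probe set of Ms4a2 and of Hdc is given beside it. The set was chosen in part by measured values, namely the lower level of Prg2 in Dot1l-deleted granulocyte-macrophage progenitors (GMP). Values of all 9 genes in that comparison, and of Prg2 in both comparisons of GMP with LSK cells, are therefore a description with no test.

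The study sorted bone marrow cells of strain C57/BL6 and measured their RNA on 21 Affymetrix mouse arrays. LSK cells are lineage-negative, Sca-1-positive, Kit-positive cells, a fraction with the stem and multipotent cells, and GMP are progenitors of granulocytes and macrophages. Control mice had the genotype Dot1 wt/wt x Mx-Cre, and the other mice were Dot1l fl/fl x Mx-Cre. PIPC was injected, per the series' design text, and deleted both Dot1l alleles in the floxed mice and not in the wild-type mice. The LSK arrays comprised 6 of control and 6 of Dot1l-deleted cells, and the GMP arrays 5 and 4. Dot1l encodes a methyltransferase of histone H3, and the study asked what its loss does to expression in each population. PIPC is a mimic of viral RNA, and the Mx promoter that drives Cre responds to interferon and is not specific to blood cells, so the deletion need not be limited to them. Control mice carried the same transgene. The sources used here give no ages. Nothing in the labels ties each array to an animal of its own. The p-values therefore reflect the spread among these samples only, and their precision is set by how many arrays there are.

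Eosinophil granules hold the major basic proteins, which Prg2 and Prg3 encode, and eosinophil peroxidase, which Epx encodes. Il5ra encodes the receptor chain for interleukin-5, the cytokine that drives eosinophil growth. Basophils make the protease Mcpt8, and mast cells store carboxypeptidase A3, the product of Cpa3. Fcer1a and Ms4a2 encode the alpha and beta chains of the high-affinity IgE receptor of basophils and mast cells, and Hdc encodes histidine decarboxylase, which makes histamine. Eosinophil and basophil precursors descend from the same compartment as GMP, and the factors GATA-1, GATA-2 and C/EBP alpha act in the choice between these fates. Bulk arrays cannot tell fewer cells of a type apart from less RNA per cell.

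The genes of the sort antigens were read in part, since Ly6a, the gene of Sca-1, had no probe set of its own. Fcgr3, an antigen of the GMP gate, was 2.86 ± 0.42 (SE) higher on the log2 scale in control GMP than in control LSK (limma adjusted p = 0.000382), and all 5 measured primary granule genes of the neutrophil and monocyte line rose there too. Flt3, a gene of early progenitors, was lower in control GMP by 5.07 ± 0.60 (difference -5.07, adjusted p = 9.56e-05). Kit was lower there too (difference -2.63 ± 0.58, adjusted p = 0.00795), and Cd34 did not pass (-1.92 ± 0.72, adjusted p = 0.0801). Between deleted populations Fcgr3 was 2.38 ± 0.45 higher in GMP (adjusted p = 0.0363), and Flt3, Kit and Cd34 did not pass. In deleted against control LSK, Flt3 differed by -2.53 ± 0.57 and did not pass (adjusted p = 0.193). Among the deleted LSK arrays, K1272 differed most from the rest. Its mean Spearman correlation with its own group was 0.684, and the values for the other deleted LSK arrays reached 0.889. The signal of 19 genes of other tissues, such as Alb of the liver, averaged 5.45 on that array and between 3.83 and 4.18 on the control LSK arrays. The same average lay between 4.39 and 4.67 on the control GMP arrays and between 3.73 and 4.52 on the deleted GMP arrays. Genes of late neutrophils, cells that the lineage-negative gate of the LSK sort should remove, averaged between 7.35 and 11.77 in control LSK, 5.69 and 7.53 in deleted LSK, 7.57 and 8.18 in control GMP, and 6.56 and 7.42 in deleted GMP, over 9 of 10 listed genes. The highest value, 11.77, was that of the control LSK array K1581, and the other control LSK arrays did not exceed 9.77. That array also had the highest control LSK levels of Prg3, Epx, Mcpt8 and Hdc, and the part of late neutrophil RNA in them was not tested. Without it, 0 of the 9 genes passed for deletion in LSK and 3 passed between control populations. The rises of Prg3 and Hdc between control populations were then 1.94 and 4.44, and the LSK deletion difference of Mcpt8 was 1.73 (adjusted p = 0.525). The deleted GMP arrays K1190 and K1272 were closer to each other than any other pair in their group, at a Spearman correlation of 0.982. Their log2 values differed by 0.198 at the median gene, and those of the second closest pair by 0.377. Their values were not identical, and they were kept as separate samples.

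In control cells, Prg3, Epx and Hdc rose from LSK to GMP. Of the 8 genes tested, these 3 passed limma's test at an adjusted p under 0.05 and none fell, while 12.0% of all genes passed and 7.03% passed as higher in GMP. The differences of all 9 genes had a median of 1.39 on the log2 scale, against 0.29 over all genes, and 8 of the 9 were positive. The positive ones included Il5ra at 0.0015 ± 0.22 and Prg2, whose value is a description. All 19 measured genes of other tissues were positive there too, with a median of 0.49. In 2 of the 8 tested genes, Epx and Hdc, the groups did not overlap, against 14.7% of all genes. Between Dot1l-deleted LSK and deleted GMP, 0 of the 8 tested genes passed, and 0.143% of all genes passed. Of the 8, 2 had an unadjusted p under 0.05, against 7.28% of all genes. The groups overlapped for all 9 genes there, where 2.03% of all genes had groups apart. The comparison of deleted with control LSK cells called 0 of 9 genes by limma, and 0% of all 18194 genes. Of the 9, 4 had an unadjusted p under 0.05, namely Prg2, Mcpt8, Fcer1a and Hdc, where 5.61% of all genes had one. In none of the 9 were the LSK groups apart, against 0.330% of all genes. With arrays weighted by their quality these 4 genes passed the test and 3.64% of all genes did, but the estimate of those weights stopped before it converged. Between control populations that fit called 38.8% of all genes. In deleted against control GMP, 7 of the 9 differences were negative, with a median of -0.18, close to the median of -0.20 over all genes. Prg2 was the only 1 of the 9 with no overlap between the GMP groups, where 4.78% of all genes had none and 0.143% of all genes were called.

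**Figure D1:**
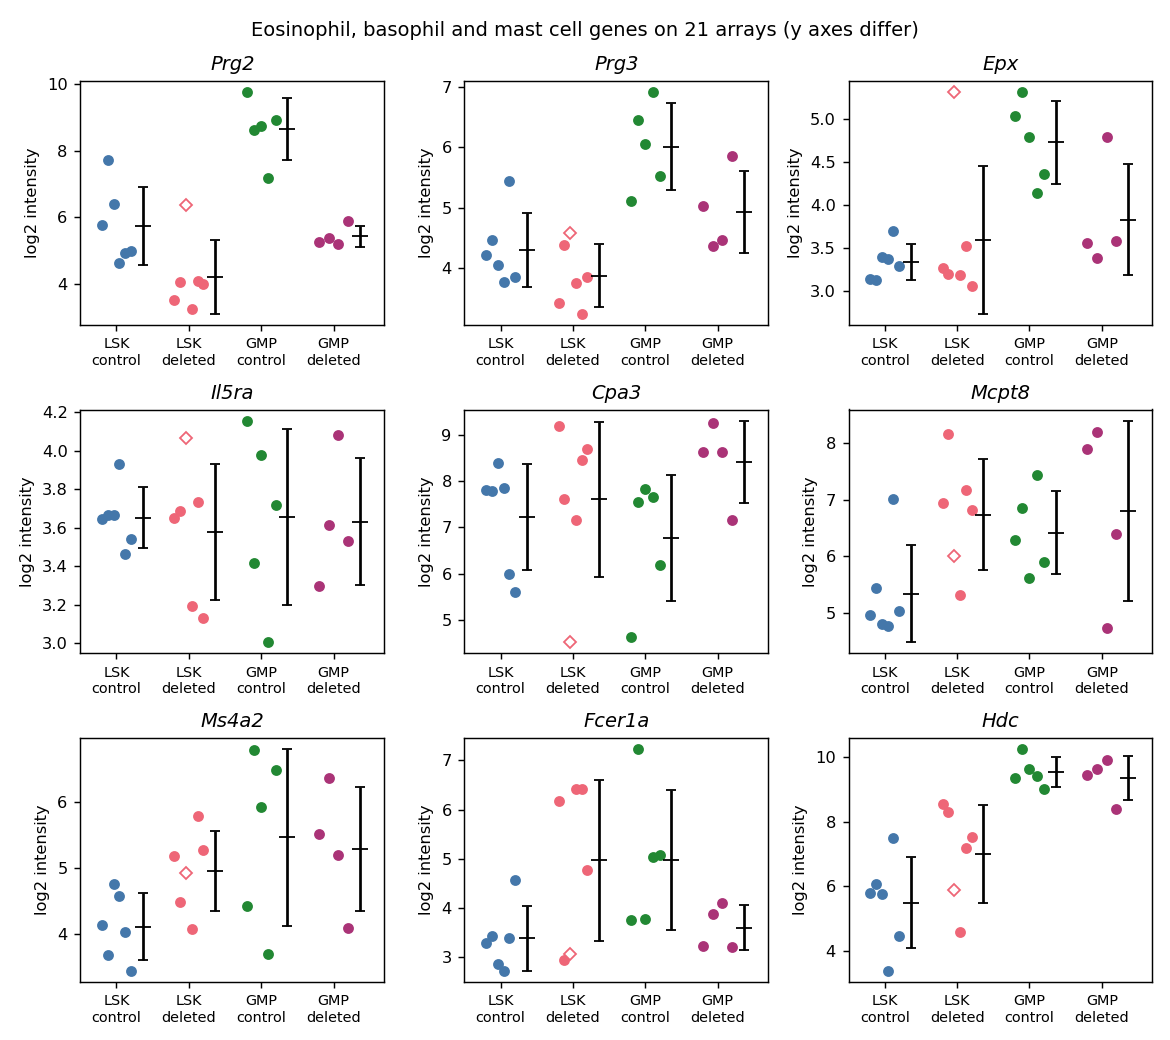
Log2 intensity (y axis, its range differing between panels) of each of the 9 genes on each of the 21 arrays, by group (x axis). Points are arrays, the open diamond is the deleted LSK array K1272, and bars are the mean with SD. The deleted GMP arrays of Prg2 lie between 5.21 and 5.90, below all control GMP arrays, and Hdc is at least 8.40 on every GMP array.

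The order of the group means differed between the genes. Control GMP ranked first for Prg2 (8.64 ± 0.93, SD, n = 5), Prg3 (6.01 ± 0.71), Epx (4.73 ± 0.48), Ms4a2 (5.46 ± 1.34), Fcer1a (4.98 ± 1.42) and Hdc (9.54 ± 0.46). Deleted GMP ranked first for Cpa3 (8.42 ± 0.89, SD, n = 4) and Mcpt8 (6.80 ± 1.59). Without the array K1272, deleted LSK ranked first for Mcpt8 (6.88 ± 1.02, n = 5) and for Fcer1a (5.35 ± 1.51). For Prg2 the order then ran over control LSK (5.75 ± 1.16, n = 6) and deleted GMP (5.44 ± 0.32, n = 4) to deleted LSK (4.22 ± 1.11, n = 6), and the middle groups lay closer than their SDs. For Prg3 and Epx deleted GMP came next, at 4.92 ± 0.68 and 3.83 ± 0.65, more than 1 SD below control GMP and within 1 SD of the group next in order, which was control LSK for Prg3 and deleted LSK for Epx. Hdc in deleted GMP, at 9.36 ± 0.67, lay within 1 SD of control GMP, and both were above deleted LSK at 7.01 ± 1.52 by more than 1 SD. For Mcpt8 and Ms4a2 the step beyond 1 SD was the last one, down to control LSK at 5.34 ± 0.85 and 4.11 ± 0.51. Neighbours in the order of Cpa3, Fcer1a and Il5ra all lay within the larger of their SDs.

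Prg2, the gene of the chief major basic protein, had its highest levels in control GMP and its lowest in deleted LSK. In control GMP its log2 levels were 9.76, 8.62, 8.75, 7.18 and 8.91 on arrays K1601, K1602, K1603, K1604 and K1581. In deleted GMP they were 5.27, 5.38, 5.21 and 5.90 on arrays K1190, K1272, K1359 and K1421. No deleted array reached the lowest control array, and the spread within the deleted group was the smaller, with an SD of 0.32 (n = 4) against 0.93 (n = 5). The difference was -3.20 ± 0.63 (SE), which is a 9.22-fold lower level, and it lay between -3.57 and -2.93 when each array was left out in turn. As these values chose the gene, no test is given. Over the other settings tried, among them the deleted arrays K1190 and K1272 averaged and the level of other-tissue genes as a covariate, the difference lay between -3.24 and -2.66.

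In LSK cells the level of Prg2 was lower overall. The control arrays ran from 4.65 to 7.71 with a median of 5.39, and the deleted arrays from 3.26 to 6.39 with a median of 4.03. The deleted group reached 6.39 on K1272 alone, and its other 5 arrays lay between 3.26 and 4.09, below all 6 control arrays. The median gene of other tissues had a mean of 3.89 over all arrays. How far background signal limits the size of the Prg2 difference was not tested. The difference was -1.52 ± 0.54 (adjusted p = 0.642, unadjusted p = 0.0104) and -1.96 ± 0.48 without K1272 (adjusted p = 0.206), so it did not pass limma's test over all genes either way. With array weights it was -1.91 with an adjusted p of 0.00373, a fit in which K1272 had a weight of 0.099. Over all settings tried its adjusted p ran from 0.0032 to 1. Prg2 was 2.90 ± 0.57 higher in control GMP than in control LSK and 1.22 ± 0.60 higher in deleted GMP than in deleted LSK, given as a description. These 4 comparisons share arrays, so they do not stand independently of each other.

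Prg3 encodes the second major basic protein, and Epx the peroxidase of the same granules. They are 2 of the 3 genes that rose together in control GMP, and for that reason the DNA just before each annotated start is shown, from RefSeq on build GRCm38.p6, read 5′ to 3′ along the gene's strand. The window of Prg3 is chr2:84987965-84988195 on the plus strand and that of Epx is chr11:87875537-87875786 on the minus strand. Capitals mark a match to the motif that GATA factors bind, written GATAA or GATAG after an A or a T, on either strand.
Prg3: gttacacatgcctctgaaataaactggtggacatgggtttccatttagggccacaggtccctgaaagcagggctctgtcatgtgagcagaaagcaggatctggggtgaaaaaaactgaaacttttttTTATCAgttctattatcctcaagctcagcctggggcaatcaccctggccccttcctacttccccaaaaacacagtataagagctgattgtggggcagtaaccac
Epx: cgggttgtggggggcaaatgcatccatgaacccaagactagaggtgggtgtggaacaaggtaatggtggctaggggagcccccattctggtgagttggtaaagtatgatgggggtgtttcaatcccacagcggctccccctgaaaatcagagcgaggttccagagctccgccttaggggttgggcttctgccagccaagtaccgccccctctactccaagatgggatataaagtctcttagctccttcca
The Prg3 window holds 1 such match, on the opposite strand, whose first base lies 123 bases before the table's start site, and the Epx window holds none. The table has a window for 8 of the 9 genes. Over the 250 bases before the start, 6 of these 8 had a GATA match, namely Prg3, Il5ra, Cpa3, Ms4a2, Fcer1a and Hdc, and 26.5% of all 32851 windows of that length did. Ms4a2 had 3 matches, at 224, 37 and 11 bases before its start. The letters TTGCNNAA, which C/EBP factors bind, were in the window of Fcer1a and in 9.56% of all windows. The letters GAGGAA, which the factor PU.1 binds, were in those of Mcpt8 and Fcer1a and in 23.3% of all windows. For Mcpt8 and Hdc the window lies inside the span that the gene table gives the gene. Those of Ms4a2, Cpa3, Prg3 and Fcer1a reach into that span by 71, 28, 19 and 3 bases. The Ms4a2 matches at 37 and 11 bases are thus inside the span of the gene. A match of letters is a description and was not tested for binding.

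Prg3 had log2 levels of 5.12, 6.45, 6.05, 6.91 and 5.53 on the control GMP arrays K1601, K1602, K1603, K1604 and K1581. The control LSK arrays ran from 3.78 to 5.43 with a median of 4.13. Only the control LSK array K1581, at 5.43, reached into the range of control GMP. The rise from LSK to GMP was 1.71 ± 0.37 on the log2 scale, or 3.28-fold, and passed limma's test (adjusted p = 0.00644). It no longer passed with each array's upper quartile as a covariate (1.52, adjusted p = 0.0754), the highest of adjusted p-values that ran from 0.00118 upward over all settings. In deleted GMP the levels were 5.02, 4.37, 4.46 and 5.85 on K1190, K1272, K1359 and K1421, and they overlapped control GMP through K1421. The difference from control GMP was -1.09 ± 0.41. Deleted LSK arrays ran from 3.24 to 4.58 with a median of 3.80, and the difference from control LSK was -0.42 ± 0.35 (adjusted p = 0.985). Deleted GMP was above deleted LSK by 1.05 ± 0.39, which did not pass (adjusted p = 0.46).

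Epx was dim in LSK cells of both genotypes. The control LSK arrays ran from 3.13 to 3.69 with a median of 3.33, and all 5 control GMP arrays were higher, at 5.03, 5.31, 4.79, 4.14 and 4.36 on K1601, K1602, K1603, K1604 and K1581. The rise was 1.39 ± 0.35 on the log2 scale (adjusted p = 0.0172). The average of the other-tissue genes, which were listed as a guide to background signal, moved the same way. Its level was 4.05 ± 0.13 (SD, n = 6) on the control LSK arrays and 4.53 ± 0.12 (SD, n = 5) on the control GMP arrays, and all 19 of these genes had a positive difference, although 0 passed the test. With that average as a covariate the rise of Epx was 0.77 and no longer passed (adjusted p = 0.0748), and with the upper quartile as a covariate it was 0.69 (adjusted p = 0.293). Its lowest adjusted p over all settings was 0.000279. In deleted GMP, Epx stood at 3.55, 3.39, 4.79 and 3.58 on K1190, K1272, K1359 and K1421. The array K1359 lay inside the control range and the others below it. Its other-tissue average of 4.52 was the highest of the deleted GMP arrays. The difference of deleted from control GMP was -0.90 ± 0.39. With each array left out it lay between -1.22, without K1359, and -0.75, without deleted GMP array K1272. Over the other settings tried it lay between -1.12 and -0.42. Of the 19 other-tissue genes, 18 had a negative difference there, with a median of -0.41 against -0.20 over all genes. The part of this signal in the difference of Epx was not tested. The deleted LSK arrays of Epx ran from 3.06 to 5.31 with a median of 3.23, where 5.31 was K1272, the array with the highest other-tissue average. The LSK difference was 0.26 ± 0.34 with that array and -0.09 ± 0.24 without it (adjusted p = 0.985 and 1).

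**Figure D2:**
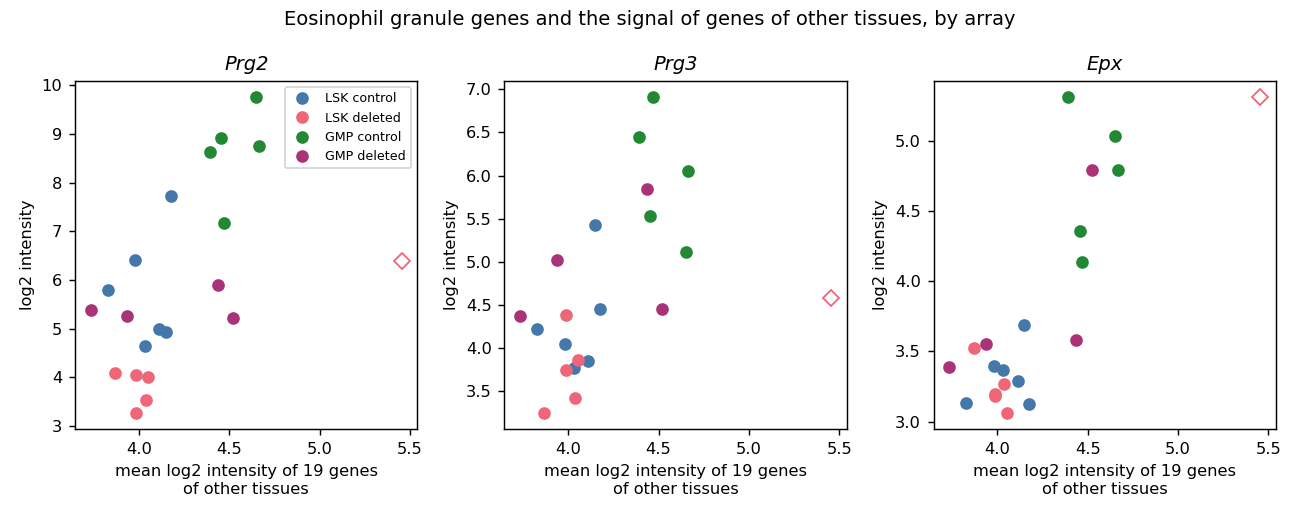
Log2 intensity of Prg2, Prg3 and Epx (y axes, ranges differ) against the mean log2 intensity of 19 genes of other tissues (x axis), 1 point for each of 21 arrays, coloured by group. The open diamond is the deleted LSK array K1272, at 5.45 on the x axis. Epx is above 4 only on arrays whose x value is at least 4.39, while the deleted GMP arrays of Prg2 stay between 5.21 and 5.90 across x values from 3.73 to 4.52.

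Il5ra, the remaining eosinophil gene, did not separate any pair of groups. Its control LSK arrays ran from 3.47 to 3.93 with a median of 3.66, and its deleted LSK arrays from 3.13 to 4.07 with a median of 3.67. The control GMP arrays read 4.16, 3.42, 3.98, 3.01 and 3.72 on K1601, K1602, K1603, K1604 and K1581, and the deleted GMP arrays 3.30, 3.62, 4.08 and 3.53 on K1190, K1272, K1359 and K1421. The 4 group means therefore lay between 3.58 and 3.66, with SDs from 0.16 to 0.46. The LSK deletion difference was -0.08 ± 0.21 (adjusted p = 0.986), the difference of control GMP from control LSK 0.0015 ± 0.22 (adjusted p = 0.996), and that of deleted GMP from deleted LSK 0.05 ± 0.24 (adjusted p = 1). The direction of these differences changed with the setting. No detection calls were used here, so these levels do not show whether the transcript was above background.

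Mcpt8, the basophil protease gene, was low on most control LSK arrays and high on most deleted ones. Control LSK ran from 4.77 to 7.01 with a median of 4.99, where 7.01 was array K1581 and the other 5 did not exceed 5.45. Deleted LSK ran from 5.31 to 8.17 with a median of 6.88. The groups overlapped through K1581 of the controls and through K1359 of the deleted arrays. The difference was 1.40 ± 0.56, a 2.64-fold higher level, and did not pass over all genes (adjusted p = 0.782, unadjusted p = 0.0218). With array weights it was 1.97 (adjusted p = 0.01), and over all settings its adjusted p ran from 0.00776 to 1. In control GMP the levels were 6.29, 6.85, 5.61, 7.43 and 5.89 on K1601, K1602, K1603, K1604 and K1581. In deleted GMP they were 7.89, 8.20, 4.73 and 6.40 on K1190, K1272, K1359 and K1421. The deleted GMP arrays thus held both the highest and the lowest GMP level of Mcpt8, and the difference of 0.39 ± 0.65 was smaller than its SE. The 2 high arrays are the pair that lay close to each other over all genes. The rise of 1.08 ± 0.59 from control LSK to control GMP did not pass (adjusted p = 0.194).

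Cpa3, the mast cell carboxypeptidase gene, varied widely within every group. In control LSK it ran from 5.59 to 8.39 with a median of 7.79, and in deleted LSK from 4.51 on K1272 to 9.19 with a median of 8.04. The control GMP arrays read 4.63, 7.56, 7.83, 7.65 and 6.18 on K1601, K1602, K1603, K1604 and K1581. The deleted GMP arrays read 8.62, 9.27, 8.63 and 7.17 on K1190, K1272, K1359 and K1421, and 3 of these 4 were above all control GMP arrays. The difference was 1.65 ± 0.84, the only one above 1 among the 9 genes in that comparison, and the groups overlapped through K1421. The LSK deletion difference was 0.37 ± 0.72 (adjusted p = 0.985), and without K1272 it was 0.99 ± 0.62 (adjusted p = 1). Control GMP and control LSK differed by -0.46 ± 0.76 (adjusted p = 0.659). The sign of that difference turned with the upper quartile as a covariate (1.10), with the other-tissue average as a covariate (0.69) and without control GMP array K1601 (0.07). Its difference in deleted GMP thus had the opposite sign to that of Prg2 and a larger SE.

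Ms4a2, the beta chain of the IgE receptor, passed the test in none of the 3 comparisons in which it was tested, and its highest levels were on control GMP arrays. Its brighter probe set ran from 3.44 to 4.76 in control LSK, with a median of 4.08, and read 4.42, 6.78, 5.91, 3.70 and 6.48 on the control GMP arrays K1601, K1602, K1603, K1604 and K1581. Of the control GMP arrays, 3 were above every control LSK array, and K1601 and K1604 were within their range. The difference of 1.35 ± 0.50 did not pass (adjusted p = 0.077), and it passed without control GMP array K1604 (1.79, adjusted p = 0.025), and with array weights (1.38, adjusted p = 0.0304). Its adjusted p-values reached 0.185 under other settings. The deleted LSK arrays ran from 4.08 to 5.78 with a median of 5.05, and the difference from control LSK was 0.84 ± 0.48 (adjusted p = 0.985). Deleted GMP read 5.50, 6.35, 5.19 and 4.09 on K1190, K1272, K1359 and K1421, with a difference from control GMP of -0.17 ± 0.55. The second probe set ran from 3.04 to 5.26 over all arrays and gave 0.82 ± 0.32 for control GMP over control LSK (adjusted p = 0.0954 with every probe set tested) and 0.57 ± 0.30 for the LSK deletion (adjusted p = 0.956). The probe sets pointed the same way in all 4 comparisons.

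Fcer1a, the alpha chain that binds IgE, divided the deleted LSK arrays. Control LSK ran from 2.73 to 4.58 with a median of 3.35. Deleted LSK ran from 2.95 to 6.42 with a median of 5.48, where K1190 and K1272 stood at 2.95 and 3.07 and the other 4 at 4.78 or more, above all control LSK arrays. The difference was 1.58 ± 0.64 (adjusted p = 0.788), and 1.96 ± 0.63 without K1272 (adjusted p = 0.521). Array weights gave 1.997 (adjusted p = 0.0391), and adjusted p-values ran from 0.0379 to 1 over all settings. The control GMP arrays read 3.76, 7.23, 3.77, 5.05 and 5.09 on K1601, K1602, K1603, K1604 and K1581. The deleted GMP arrays read 3.24, 3.88, 4.10 and 3.21 on K1190, K1272, K1359 and K1421. All of the deleted GMP arrays were below the 3 brighter control arrays and overlapped the 2 dimmer ones, with a difference of -1.37 ± 0.75. These deleted levels lay near the mean of the median other-tissue gene, 3.89. Of the 19 other-tissue genes, 18 had a negative difference there, with a median of -0.41, and their part in Fcer1a was not tested. The differences of Fcer1a on deletion were thus positive in LSK and negative in GMP, each inside a group overlap. Whether they differ from each other was not tested, since the GMP values entered the choice of the set. Control GMP was 1.59 ± 0.68 above control LSK (adjusted p = 0.111), and 2.03 with array weights (adjusted p = 0.0296, from 0.0296 to 0.24 over all settings). Deleted GMP stood below deleted LSK with a difference of -1.36 ± 0.72 (adjusted p = 0.758), and of -1.92 with weights estimated gene by gene (adjusted p = 0.0132, from 0.0132 to 1 over all settings).

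Hdc, the histamine-forming enzyme gene, gave the largest rise from LSK to GMP among the 9 genes. Its brighter probe set ran from 3.39 to 7.49 in control LSK with a median of 5.77, and read 9.37, 10.26, 9.63, 9.41 and 9.01 on the control GMP arrays K1601, K1602, K1603, K1604 and K1581. Every GMP array was above every control LSK array. The rise was 4.04 ± 0.67, or 16.4-fold (adjusted p = 0.000968). The second probe set gave a smaller rise of 1.37 ± 0.59, which did not pass (adjusted p = 0.123 with every probe set tested), and its control GMP arrays ran from 6.11 to 8.76 against 4.94 to 7.11 in control LSK. The size of the rise of Hdc thus differed between its probe sets. In deleted GMP the brighter probe set read 9.46, 9.65, 9.93 and 8.40 on K1190, K1272, K1359 and K1421, and the difference from control GMP was -0.18 ± 0.74. The second probe set gave 0.63 ± 0.66 there, of the opposite sign. Deleted LSK ran from 4.58 to 8.56 with a median of 7.36, above control LSK by 1.51 ± 0.64 (adjusted p = 0.795, unadjusted p = 0.028). With array weights this was 2.01 (adjusted p = 0.028), and adjusted p-values ran from 0.0242 to 1 over all settings. Deleted GMP was 2.35 ± 0.71 above deleted LSK, which did not pass (adjusted p = 0.249).

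**Figure D3:**
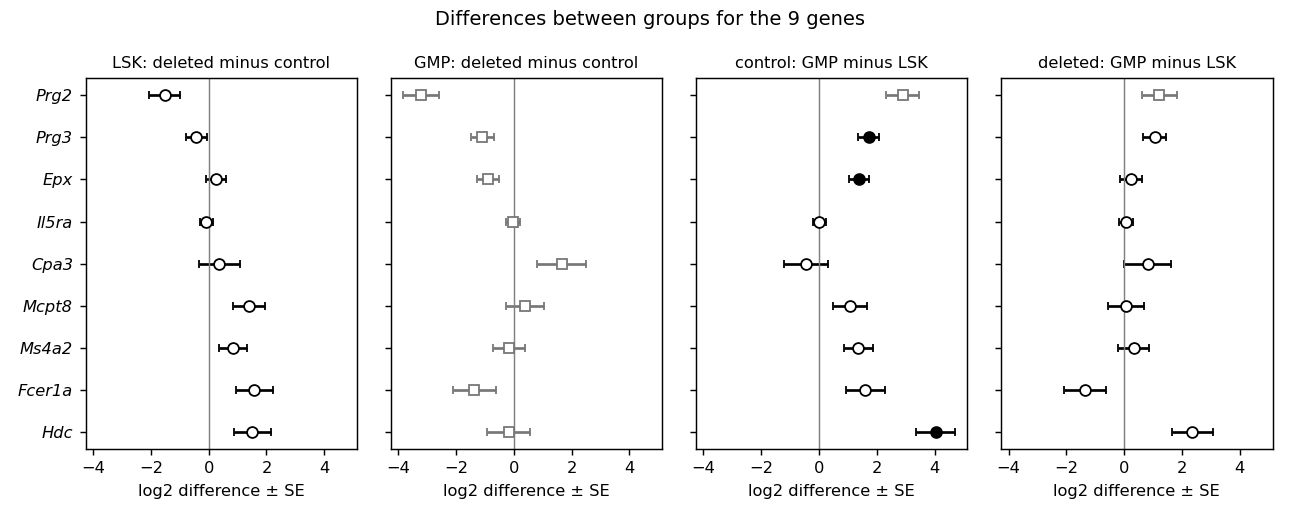
Log2 difference with SE (x axis) of the 9 genes (y axis) in 4 comparisons, 1 panel each. Filled circles passed limma's test at an adjusted p under 0.05, open circles were tested and did not pass, and grey squares are descriptions with no test. The filled circles are Prg3, Epx and Hdc in control GMP against control LSK, and the square farthest from 0 is Prg2 at -3.20 in deleted against control GMP.

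The 9 genes did not rise and fall as a unit from array to array. After the mean of its group was taken from each value, the 36 pairs among them had Pearson correlations from -0.525 to 0.605 over 21 arrays, with a median of 0.023. These correlations compare genes read on the same arrays, so a difference in signal between arrays can enter both genes, and no p is given. Mcpt8 and Hdc had 0.546 and kept 0.524 without the deleted LSK array K1272. With Ms4a2 and Fcer1a, Mcpt8 had 0.057 and -0.054 and Hdc 0.229 and 0.019, and Ms4a2 and Fcer1a had 0.228. Epx and Il5ra had 0.605, and 0.518 without K1272. Of the other eosinophil pairs, Prg2 had 0.510 with Il5ra, 0.467 with Epx and 0.017 with Prg3. Without K1272 these were 0.378, 0.044 and -0.201. Prg3 had 0.126 with Epx and -0.412 with Il5ra, and without K1272 these were -0.167 and -0.600. Over the same 21 arrays the 5 genes whose deviations were most like those of Prg2 were Lpxn (0.811), Gm11716 (0.806), Ifi27l2a (0.797), Ccdc146 (0.797) and Nova2 (0.791). Without K1272 only Lpxn was again among the 5 most alike, at 0.747. For Mcpt8 they were 4933404O12Rik (0.872), Ireb2 (0.833), Aspn (0.829), Ftsj1 (0.828) and Cybb (0.828), and 4 of these recurred without K1272. For Cpa3 they were Rnf8 (0.898), Ctdp1 (0.884), Slc2a1 (0.879), Nsmce4a (0.862) and Utp11 (0.853), and none recurred without K1272.

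The wider program of these lineages was followed through 66 further genes in 4 lists by function, of which 54 had a probe set of their own. In control GMP against control LSK, 10 of the 54 passed limma's test, 5 higher and 5 lower, where 12.0% of all genes passed. In deleted against control GMP, 0 of 54 passed, and 8 had an unadjusted p under 0.05, where 13.9% of all genes had one. In deleted against control LSK, 0 of 54 passed, and 5 had an unadjusted p under 0.05, against 5.61% of all genes. Between deleted GMP and deleted LSK, 1 of 54 passed, against 0.143% of all genes. The median difference of the 54 was 0.36 between control populations against 0.29 over all genes, and -0.20 for deletion in GMP against -0.20 over all genes. Control groups did not overlap for 2 of 11 granule protein genes, 3 of 18 receptor and signalling genes, 0 of 7 eicosanoid enzymes and 7 of 18 lineage factors. The share over all genes was 14.7%. In deleted against control GMP these counts were 0, 2, 0 and 2, against 4.78% of all genes.

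Of the genes of granule proteins, 11 of 19 were measured, and 1 passed in any comparison. Slc18a2, which loads histamine and other amines into granules, was lower in control GMP than in control LSK by 3.60 on the log2 scale (difference -3.60 ± 0.88, adjusted p = 0.014). Its difference on deletion in GMP was 1.88 ± 0.98 (adjusted p = 0.383). Mcpt4, a mast cell chymase gene, was 0.41 ± 0.20 higher in control GMP (adjusted p = 0.15) with groups apart, and its difference on deletion in GMP was -0.49 ± 0.22 (adjusted p = 0.338). It was dim, with a mean of 3.18 over all arrays, where the median other-tissue gene had 3.89. The other-tissue genes had median differences of 0.49 and -0.41 in the same comparisons, and their part in Mcpt4 was not tested. Srgn, the proteoglycan core of granules, was 1.10 ± 0.38 above deleted LSK in deleted GMP (adjusted p = 0.342). The deleted LSK array K1272 read 9.69 for Srgn and the others 11.91 to 12.26, with deleted GMP at 12.68 or more. Tpsb2, a mast cell tryptase gene, differed by 0.48 ± 0.28 on deletion in LSK (adjusted p = 0.985). It read 7.36 on the deleted LSK array K1272 and 5.51 to 5.80 on the other deleted LSK arrays.

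Of the receptor and signalling genes, 18 of 20 were measured, and 4 passed between the control populations. Fcer1g, the chain that IgE and IgG receptors share, rose by 2.62 ± 0.46 (adjusted p = 0.00158) with groups apart, and Csf2ra, the GM-CSF receptor, rose by 1.52 ± 0.46 (adjusted p = 0.0378). Lat, an adaptor of mast cell and T cell signalling, fell by 2.55 (difference -2.55 ± 0.41, adjusted p = 0.000697), and Jak2, a kinase of cytokine receptors, fell by 2.35 (difference -2.35 ± 0.76, adjusted p = 0.0491). Lat was also the 1 gene lower in deleted GMP than in deleted LSK (-2.43 ± 0.43, adjusted p = 0.0261), a call lost without any 1 of the deleted LSK arrays K1091 and K1422 or the deleted GMP arrays K1190 and K1272. Siglecf, a surface lectin of mouse eosinophils, was on the 4 deleted GMP arrays at 8.46, 8.90, 9.20 and 8.25 for K1190, K1272, K1359 and K1421. The control GMP arrays read 4.96, 8.15, 6.03, 6.14 and 7.72 for K1601, K1602, K1603, K1604 and K1581. All deleted arrays were above all control arrays, opposite to Prg2. The difference was 2.10 ± 0.77 and did not pass over all genes (adjusted p = 0.255). In LSK it was 1.54 ± 0.66 (adjusted p = 0.818). Il3ra, the interleukin-3 receptor alpha chain, read 7.34, 7.29, 7.14, 7.24 and 6.92 on the control GMP arrays in the same order. It read 6.19, 5.91, 6.58 and 6.22 on the deleted ones, again with groups apart, and its difference of -0.96 ± 0.42 did not pass (adjusted p = 0.325). The GMP groups were apart for 2 of the 18 measured genes, Siglecf and Il3ra, against 4.78% of all genes. Crlf2, the receptor of the cytokine TSLP, differed by -1.97 ± 0.74 (adjusted p = 0.264) and Cd200r3, a basophil and mast cell receptor, by -0.74 ± 0.26 (adjusted p = 0.246). Cd200r3 passed when the deleted LSK array K1272 was left out (-0.74 ± 0.19, adjusted p = 0.0481). That array is of neither GMP group but enters the shared estimate of spread, and without it 390 of all 18194 genes passed, against 26 with it. Cd200r3 was dim, from 2.85 to 3.86 on control GMP arrays and from 2.57 to 3.14 on deleted ones, and the median other-tissue gene had a mean of 3.89. The adjusted p of Cd200r3 ran from 0.000657 to 0.552 over all settings.

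Of the eicosanoid enzymes, which make leukotrienes and prostaglandins, 7 of 8 were measured and 0 passed in any of the 4 comparisons. Lta4h, the enzyme that forms leukotriene B4, had the smallest p between control populations (1.60 ± 0.60, adjusted p = 0.08). Pla2g4a, the phospholipase that frees arachidonic acid, differed by 1.43 ± 0.59 on deletion in GMP (adjusted p = 0.309) and by -1.25 ± 0.54 between control populations (adjusted p = 0.114). Ltc4s, the leukotriene C4 synthase gene, differed by 0.66 ± 0.36 on deletion in LSK (adjusted p = 0.973).

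Of the lineage factors, 18 of 19 were measured, and 5 passed between the control populations. Cebpa rose by 3.27 ± 0.56 (adjusted p = 0.00118), Cebpb by 2.39 ± 0.52 (adjusted p = 0.00676) and Xbp1, a factor that eosinophil precursors need, by 1.76 ± 0.40 (adjusted p = 0.00964). Xbp1 is named because it passed and not by the rule for naming genes. Gata2, a factor of mast cells and basophils, fell by 2.92 (difference -2.92 ± 0.49, adjusted p = 0.00114) and Tal1 fell by 2.76 (difference -2.76 ± 0.44, adjusted p = 0.000651). In deleted GMP, Gata1, a factor that eosinophil, mast cell and red cell precursors use, read 4.14, 4.09, 4.08 and 4.50 on K1190, K1272, K1359 and K1421. The control GMP arrays read 5.51, 4.97, 4.76, 5.47 and 5.12 on K1601, K1602, K1603, K1604 and K1581, all above the deleted ones. The difference of -0.96 ± 0.44 did not pass (adjusted p = 0.343). The other-tissue average ran from 3.73 to 4.52 on the deleted GMP arrays, and its part in Gata1 was not tested. Cebpa showed the same order as Gata1, with deleted GMP at 9.70, 9.92, 10.19 and 9.98. Its control GMP levels were 11.08, 10.57, 11.97, 11.68 and 10.48 on the same arrays, and the difference was -1.20 ± 0.61 (adjusted p = 0.378). In LSK the difference of Cebpa was 1.71 ± 0.53 (adjusted p = 0.515). The GMP groups were apart for 2 of the 18 measured lineage factors, Gata1 and Cebpa, against 4.78% of all genes. Cebpb differed by -1.19 ± 0.57 in GMP (adjusted p = 0.362) and Mitf, a mast cell factor, by 1.03 ± 0.55 (adjusted p = 0.388).

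**Figure D4:**
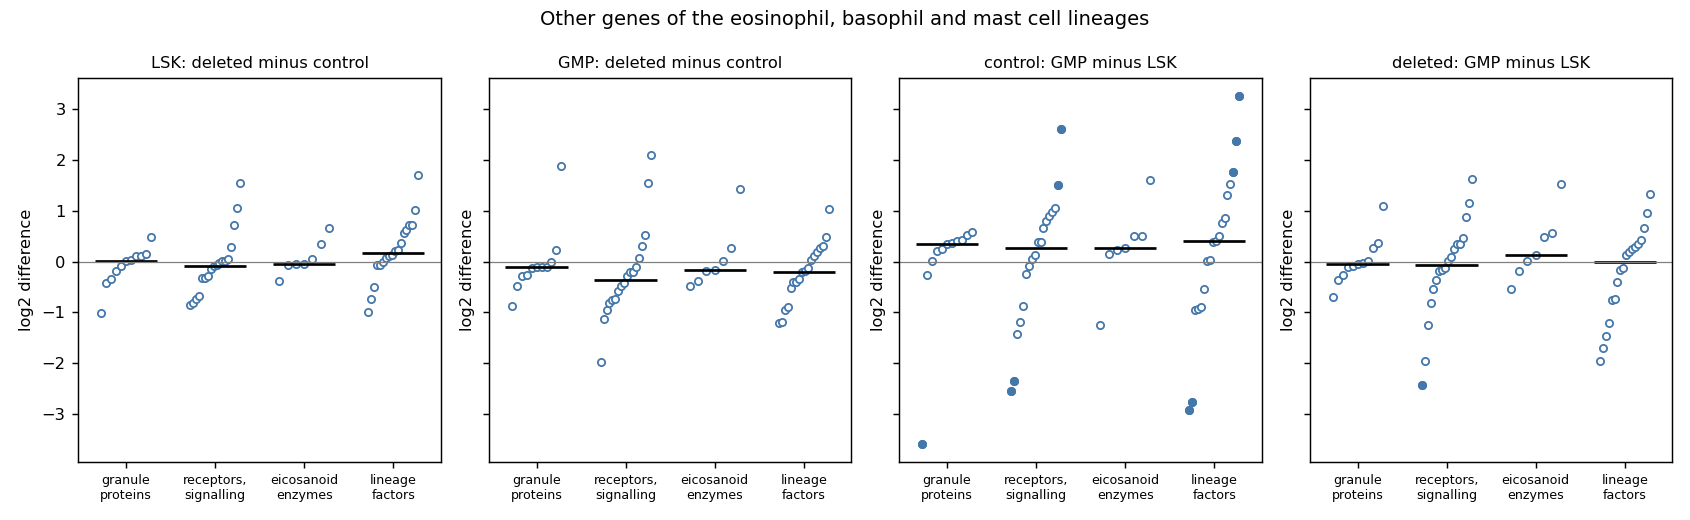
Log2 difference (y axis) of each measured gene in 4 lists by function (x axis), 1 panel for each comparison. Points are genes in order of their value within a list, filled points passed limma's test at an adjusted p under 0.05, and lines are list medians. The filled points lie between control populations, 5 higher and 5 lower, apart from Lat at -2.43 between deleted populations.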

How the data were processed

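The authors deposited 1 table of RMA intensities on a linear scale, per the submitters' processing notes for RMA and per the values for the scale, with 45101 probe sets on 21 arrays and array medians from 25.19 to 31.48. The sources used here name no genome build. The log2 of each intensity was taken, with no pseudocount or further normalization. Of the probe sets, 34958 carried 1 gene symbol in the annotation of the platform, 932 carried several and 9211 none. Those with 1 symbol gave 18194 genes, represented by their brightest probe set. RefSeq sequences came from build GRCm38.p6.

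Groups came from the sample titles. Limma 3.58.1 in R 4.3.3 fitted 4 group means over all 21 arrays, using moderated variances, and p-values were adjusted by Benjamini-Hochberg across all genes (threshold 0.05). The 9 genes and the lists were chosen with earlier results of these data known. Named were all 9 genes, in each of the 4 further lists and comparisons up to 4 genes with the smallest p, of which some are printed, and for Prg2, Mcpt8 and Cpa3 the 5 genes with the highest correlation of deviations. In simulated data with 18194 genes, the fit for deletion in LSK found 73 of 100 genes with a simulated log2 change of 2, and 30 of 100 with a change of 1. It found 74 and 18 for deletion in GMP, 72 and 19 between control populations, and 51 and 15 between deleted ones.

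Alternatives were quantile normalization again, centring on medians, genes above the median gene, other probe set choices, trended and robust variances, array weights, the 2 compared groups alone, the upper quartile as a covariate, a replicate block from the K number of each title, close arrays averaged, and each array left out. The other-tissue average as a covariate and weights estimated gene by gene were added after the data were seen, the latter because the default estimate of the weights stopped before it converged.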

Additional observations from a re-analysis of the deposited data

Results flagged for a closer look

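In 36 combinations of gene and group, 4 had an array farther from its group than Dixon's test allows at the 95% level, and chance gives about 1 in 20. Prg2 read 6.39 on the deleted LSK array K1272, where the other deleted LSK arrays lay between 3.26 and 4.09. Epx read 5.31 on the same array, and the others lay between 3.06 and 3.52. Its average of other-tissue genes, 5.45, was also the highest of all arrays, and the part of this signal in the values of Prg2 and Epx was not tested. Epx read 4.79 on the deleted GMP array K1359, against 3.39 to 3.58 on the others. Mcpt8 read 7.01 on the control LSK array K1581, against 4.77 to 5.45 on the others. The late neutrophil genes averaged 11.77 on that array and between 7.35 and 9.77 on the other control LSK arrays, and their part in the value of Mcpt8 was not tested.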

How the results depend on the processing

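Over 25 tested values of the 9 genes, 37 settings gave 898 values. Of these, 845 kept their direction and side of the threshold, 4 lost the call, 16 gained one and 33 changed sign. Array weights called 4 of the 9 genes for deletion in LSK and gene-by-gene weights called 4, while they called 3.64% and 3.81% of all genes. Between control populations these gave 5 and 5, with 38.8% and 38.2% of all genes called, the upper quartile as a covariate gave 1, and genes above the median gene gave 1, since Prg3 and Epx are dimmer than the median gene. Between deleted populations gene-by-gene weights gave 3, with 1822 of all 18194 genes called. The default weight of deleted GMP array K1190 was 0.008 and its gene-by-gene weight 12.727, so calls with weights rest on an unstable estimate. Of the 54 further genes, the default and gene-by-gene weights called 5 and 5 for deletion in LSK, 8 and 14 for deletion in GMP, 25 and 26 between control populations, and 2 and 9 between deleted ones. For deletion in GMP they called 20.8% and 41.9% of all genes. The compared groups alone gave 16 between control populations. Between deleted populations the call was 2 with the upper quartile or the other-tissue average as a covariate, and 0 with quantile normalization, the compared groups alone, either replicate block or the close arrays averaged.

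With each array left out, calls among the 9 genes were 0 to 0 for deletion in LSK, 3 to 4 between control populations and 0 to 0 between deleted ones. Those among the 54 were 0 to 0, 8 to 17 and 0 to 2, and 0 to 1 for deletion in GMP. Both 17 and 1 came without deleted LSK array K1272, where 5531 and 390 of all 18194 genes passed. Between deleted populations 2 came without deleted LSK array K1190 or K1272.

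The labels do not say what the K numbers mean, or whether LSK and GMP arrays of the same number share an animal. Correlations of same-numbered deviations ran from -0.397 to 0.272, and only K1190 correlated best with its own number. Such correlations cannot exclude a shared animal, since the arrays hold different cells and differ in quality. With the number as fixed levels of a replicate block, Prg3 rose by 1.63 between control populations and lost its call (adjusted p = 0.074).

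Signs changed as follows. Il5ra between control populations was -0.22 with quantile normalization, -0.066 with centring, -0.091 and -0.098 with default and gene-by-gene weights, -0.36 with the upper quartile, -0.021 with the fixed replicate block and -0.21 with the other-tissue average, and -0.12 to 0.16 with each array left out. Between deleted populations it was -0.076 with the upper quartile, -0.039 with the fixed replicate block, -0.21 with gene-by-gene weights and -0.096 to 0.17 with arrays left out. For deletion in LSK it was -0.18 to 0.0125 with arrays left out. Cpa3 between control populations was 1.10 with the upper quartile, 0.69 with the other-tissue average and -0.79 to 0.072 with arrays left out. Mcpt8 between deleted populations was -0.35 with close arrays averaged, -0.016 with the other-tissue average and -0.40 to 0.76 with arrays left out. Epx there was -0.019 with the upper quartile and -0.083 to 0.58 with arrays left out, and for deletion in LSK -0.088 to 0.36. Ms4a2 between deleted populations was -0.022 to 0.73 with arrays left out. The causes were not tested.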
